A study of Mus musculus with 2 samples.

Results

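CG methylation was described for 10 Notch pathway genes in primary mouse osteoblasts, of 21938 protein-coding genes annotated on the nuclear chromosomes. The genes were the 4 receptors Notch1, Notch2, Notch3 and Notch4, the 3 ligands Jag1, Jag2 and Dll1, and the 3 targets Hes1, Hey1 and Hey2. They were chosen by name, and each locus was the GENCODE M21 gene (GRCm38) with 25 kb on either side. Whole genome bisulfite sequencing had been done on 1 wild-type (WT) and 1 TCKO library. TCKO cells were from mice carrying Prx1-Cre and homozygous floxed alleles of Tet1, Tet2 and Tet3, and WT cells were from wild-type mice. Both genotypes were C57BL/6 and 3 days old, and the calvarial cells were cultured for 3 days before DNA was taken. Prx1-Cre acts in limb and calvarial mesenchyme, so cells of other origin keep their Tet alleles. Bisulfite conversion does not separate 5-methylcytosine from 5-hydroxymethylcytosine, and a level here is the sum of both. With 1 library per genotype there was no replicate check: every test compares these 2 libraries and not the genotypes, and intervals cover counting error only.

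Notch receptors are membrane proteins that are cut after a Jagged or Delta ligand on a neighbouring cell binds them, and the released intracellular part joins the DNA-binding protein RBPJ to switch on genes such as the Hes and Hey repressors. In bone, Notch signalling holds mesenchymal progenitors back from osteoblast differentiation and takes part in the exchange between osteoblasts and osteoclasts. TET enzymes oxidise 5-methylcytosine as a step towards unmethylated cytosine.

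The sequences that the results turn on were the 200 bp bins with a gain in TCKO. A gained bin was one that was 40 percentage points or more higher in TCKO, with an adjusted p below 0.05 (2-sided Fisher's exact test on methylated and unmethylated calls, Benjamini-Hochberg adjusted over all 2487317 testable bins of the genome). A call is 1 read covering 1 cytosine of a CG. The same read can give calls at several CGs, while all tests, intervals and limits took calls as independent. The p-values may therefore be too small, the intervals too narrow and the upper limits too low. A testable bin had at least 4 CG cytosines with a call. Its mean was at least 4 calls per such cytosine in each library. One gained bin is shown for each of 6 of the 7 genes that had any, to give the CG positions behind the values below. It is the bin with the largest difference in the longest run of gained bins, except for Jag1, where an intron bin stands in for one that overlaps a UTR. A further bin of Notch2 was added after its values were seen, as was the choice for Jag1. The Hes1 bin is described below by its position and values. Sequences are from GRCm38, 5′ to 3′ on the strand of the named gene, with each CG in capitals.
Notch2 intron 1, chr3:98036201-98036400, plus strand: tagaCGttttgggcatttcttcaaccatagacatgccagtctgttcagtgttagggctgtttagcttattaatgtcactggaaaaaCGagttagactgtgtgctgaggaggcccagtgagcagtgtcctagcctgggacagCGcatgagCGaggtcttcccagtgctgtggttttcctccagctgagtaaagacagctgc
Notch2 intron 9, chr3:98101801-98102000, plus strand: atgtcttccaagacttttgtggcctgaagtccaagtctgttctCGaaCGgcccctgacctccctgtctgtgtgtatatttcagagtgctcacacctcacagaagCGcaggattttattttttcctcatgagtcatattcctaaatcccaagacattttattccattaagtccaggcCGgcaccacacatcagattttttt
Notch3 intron 2, chr17:32161201-32161400, minus strand: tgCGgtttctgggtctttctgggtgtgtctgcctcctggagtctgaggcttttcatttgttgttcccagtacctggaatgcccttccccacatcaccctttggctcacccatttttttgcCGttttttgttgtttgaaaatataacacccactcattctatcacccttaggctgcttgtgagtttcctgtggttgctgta
Notch4 downstream, chr17:34607401-34607600, plus strand: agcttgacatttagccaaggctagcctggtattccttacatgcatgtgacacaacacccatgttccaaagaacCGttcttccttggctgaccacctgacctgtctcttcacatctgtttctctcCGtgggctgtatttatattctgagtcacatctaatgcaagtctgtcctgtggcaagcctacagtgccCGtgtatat
Jag1 intron 2, chr2:137108001-137108200, minus strand: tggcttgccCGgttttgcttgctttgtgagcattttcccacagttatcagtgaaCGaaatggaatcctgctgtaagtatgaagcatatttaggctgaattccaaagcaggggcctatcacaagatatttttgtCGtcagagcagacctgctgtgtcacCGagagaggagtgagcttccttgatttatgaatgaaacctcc
Jag2 downstream, chr12:112894601-112894800, minus strand: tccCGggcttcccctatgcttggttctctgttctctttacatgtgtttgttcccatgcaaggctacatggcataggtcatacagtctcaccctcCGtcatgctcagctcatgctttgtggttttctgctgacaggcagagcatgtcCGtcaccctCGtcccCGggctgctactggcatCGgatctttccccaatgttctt
Dll1 downstream, chr17:15365601-15365800, minus strand: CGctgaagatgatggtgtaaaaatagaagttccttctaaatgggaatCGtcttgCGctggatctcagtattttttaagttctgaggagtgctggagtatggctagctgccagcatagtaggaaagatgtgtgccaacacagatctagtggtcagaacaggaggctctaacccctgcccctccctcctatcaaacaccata

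These bins held between 2 and 6 CGs in 200 bp. Gained and testable bins of the 10 loci had the same median of 3.00 CGs, and over the genome the medians were 3.00 in gained and 2.00 in testable bins. Stretches of 2 promoters that had no methylated call in either library are shown for contrast, as held in the RefSeq promoter set for GRCm38.p6 and cut at the annotated start site. That set matched 8 of the 10 genes; Hes1 and Hey1 had no entry.
Notch2 promoter, chr3:98013288-98013526, plus strand: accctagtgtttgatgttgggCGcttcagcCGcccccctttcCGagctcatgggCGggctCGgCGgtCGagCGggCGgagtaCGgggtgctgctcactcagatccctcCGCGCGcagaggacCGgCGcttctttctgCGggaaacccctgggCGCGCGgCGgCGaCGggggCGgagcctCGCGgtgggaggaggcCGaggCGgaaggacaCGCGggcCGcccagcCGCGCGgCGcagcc
Hey2 promoter, chr10:30842802-30843033, minus strand: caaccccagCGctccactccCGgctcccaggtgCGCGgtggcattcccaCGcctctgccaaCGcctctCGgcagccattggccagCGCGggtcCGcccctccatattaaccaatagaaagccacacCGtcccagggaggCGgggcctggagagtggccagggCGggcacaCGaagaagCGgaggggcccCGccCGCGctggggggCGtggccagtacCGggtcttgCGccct

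The Notch2 stretch held 34 CGs in 239 bp, and 0 of 38 calls were methylated in WT and 0 of 38 in TCKO, which allows a level of up to 7.89% in each. The Hey2 stretch held 21 CGs in 232 bp, and 0 of 10 WT calls and 0 of 27 TCKO calls were methylated, which allows up to 30% and 11.1%.

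The WT library had 261062118 calls on the nuclear chromosomes, or 5.97 per CG cytosine of the reference, and the TCKO library had 223581206, or 5.11. Over the genome 70.2% of calls were methylated in WT and 76.3% in TCKO. Some exons of the targeted genes were read less often in TCKO: the calls went from 62 to 1 over exon 11 of Tet1, from 155 to 46 over exon 10 of Tet2 and from 85 to 26 over exon 11 of Tet3. Around the TSS the 8 osteoblast markers ranged in WT from 3.38% (Col1a1) to 76.8% (Bglap), with a median of 39.4%, and overlapped the 4 endothelial markers, from 40.6% to 77.6% with a median of 64.1%. The 4 haematopoietic markers had a median of 73.6% and the 3 chondrocyte markers one of 22.2%. In TCKO, 6 of 8 osteoblast, 3 of 4 endothelial, 3 of 4 haematopoietic and 0 of 3 chondrocyte markers were higher around the TSS (adjusted p below 0.05, Fisher's exact test). Of all genes tested, 37.9% were called higher, and lists of 3 or 4 genes are too short to set apart from that share. Methylation around a start site does not count cells, and the share of other cell types in the 2 cultures was not tested. In such bulk DNA a change in the mix of cells and a change within each cell cannot be told apart.

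Around the transcription start sites (TSS, 2 kb on either side of the 5′ end of the gene record), the WT level was 72.6% for Notch1 and from 44.9% to 50.9% for the other receptors, and from 6.18% to 24.8% for ligands and targets, beside a median of 45.3% over all genes. A total of 5 of the 10 genes were higher in TCKO at adjusted p below 0.05, namely Notch1, Notch2, Notch4, Jag1 and Hey2, and 0 were lower (2-sided Fisher's exact test, adjusted over 21883 genes). Of all genes tested, 37.9% were called higher and 2.88% lower. The count of 5 fell to 1 with cytosines of at least 4 calls in each library, to 3 from the plus and 2 from the minus strand, and to 2 within 500 bp, 3 within 1 kb and 1 from 1 kb upstream to 100 bp downstream. Each of these settings left fewer calls to test. The share of all genes called under them was not counted, so the lower counts cannot be read as a trait of these genes. The median difference of the 10 genes was 4.14 percentage points, and that of all genes 4.71. By class, the median was 11.1 points over receptors, 4.10 over ligands and -0.0966 over targets, which stand side by side without a test.

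Pooled levels can come from different cytosines in the 2 libraries: around the Notch1 TSS 46 of 98 CG cytosines were read in both. A second estimate compared each cytosine with itself, using those read in both libraries (Mantel-Haenszel weights and Cochran-Mantel-Haenszel chi-square test, adjusted over the same genes), and is called the matched difference here. It was added after the pooled values had been seen. By it, 5 of 10 genes were again called higher around the TSS, of 44.7% of all genes, but they were Notch2, Notch4, Jag2, Hes1 and Hey2. The matched median was 5.31 points over receptors, 1.83 over ligands, 2.13 over targets and 4.80 over all genes. Only Notch2, Notch4 and Hey2 were thus called by both estimates. Among the cell type markers, the matched estimate also called Alpl higher (7.55 points, adjusted p = 0.00356) and Sox9 lower (-3.84 points, adjusted p = 0.0492, matched chi-square test).

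**Figure D1:**
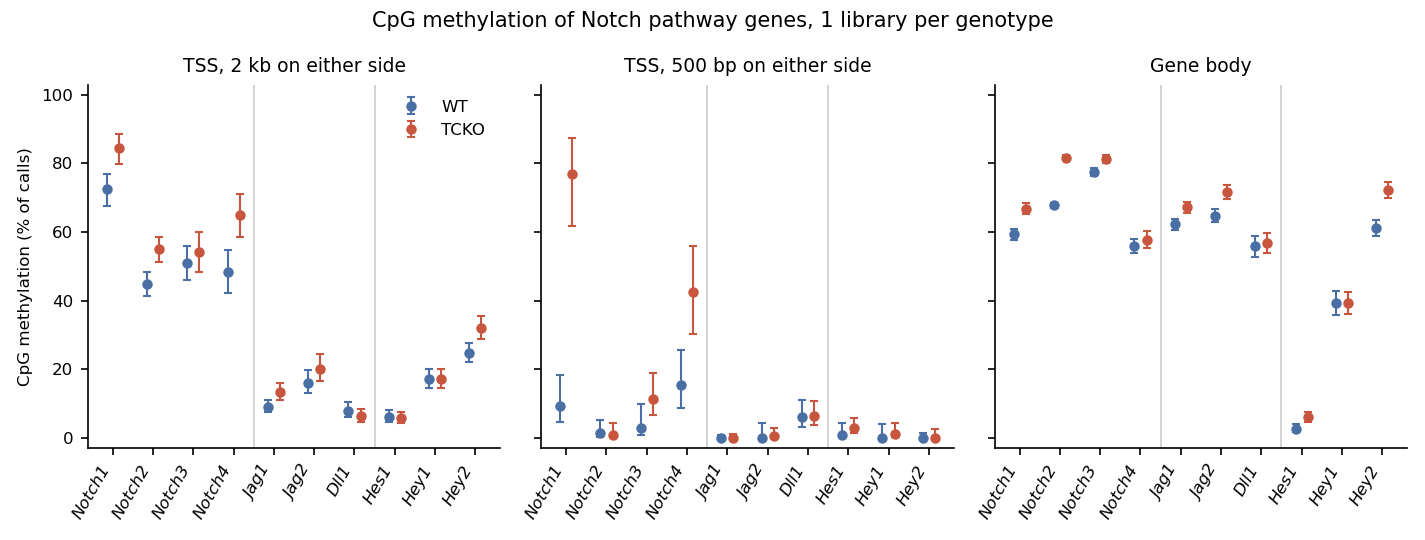
CpG methylation in percent of calls for each gene in WT (blue) and TCKO (red), within 2 kb of the TSS, within 500 bp of it and over the gene body. Points are pooled levels of 1 library each with 95% Wilson intervals, and vertical lines part receptors, ligands and targets. Within 500 bp, all genes except Notch1, Notch3 and Notch4 stayed at or below 6.45% in both libraries.

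Notch1 (chr2:26457903-26516663, minus strand), a receptor widely used in progenitor cells, showed how far the choice of start site and of cytosines moved a value. Around the 5′ end of the gene record 72.6% of 347 calls were methylated in WT and 84.6% of 254 in TCKO. The pooled difference of 12 points passed the test (95% interval 5.39 to 18.3, adjusted p = 0.00212, Fisher's exact test). The matched difference, over 46 cytosines, was -1.53 points with an adjusted p of 0.724 (matched chi-square test).

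Within 500 bp of that 5′ end the pooled level was 9.46% of 74 calls in WT and 76.9% of 39 in TCKO, the widest gap of the 10 genes at this window size. Few cytosines there were read in both libraries. Over those 8, the matched levels were 48.6% and 71.6%, and the adjusted p was 0.619 (matched chi-square test) against 8.98e-11 for the pooled calls (Fisher's exact test). The start of the principal Notch1 transcript lies 12841 bp further downstream. Around it the levels were 12.7% of 510 calls and 13.2% of 509, a difference of 0.418 points (adjusted p = 0.916, Fisher's exact test), so the window at the principal start was low in both libraries.

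Over the Notch1 body the level was 59.3% in WT and 66.8% in TCKO, higher by 7.51 points (95% interval 5.31 to 9.69, adjusted p = 9.31e-11, Fisher's exact test). None of its 48 testable bins was gained, and 0 of 48 allows up to 7.41% by the Wilson interval. With the depth minimum lowered to a mean of 1 call per cytosine, 5 of 220 bins were gained, beside 2.65% of all bins under that setting. One of these, chr2:26508401-26508600 between the start of the gene record and that of the principal transcript, had 0 of 54 methylated calls in WT and 66.7% of 21 in TCKO.

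Notch2 (chr3:98013527-98150361, plus strand), the receptor whose truncating mutations cause the bone disorder Hajdu-Cheney syndrome, had the largest body difference and the most gained bins of the 10 genes. Over its body 67.8% of 16214 calls were methylated in WT and 81.7% of 13523 in TCKO. The difference of 14 points (95% interval 13 to 14.9, adjusted p = 5.81e-167, Fisher's exact test) was larger than in 95.1% of all genes tested, and the matched difference was 14.1 points. The flanks of 25 kb differed less, by 7.33 points upstream and 5.71 points downstream.

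Its start site itself stayed unmethylated. Within 500 bp of the TSS the level was 1.48% of 135 calls in WT and 0.80% of 125 in TCKO. In windows of 500 bp downstream, from 1500 to 2000 bp the level was 24.2% in WT and 66.2% in TCKO, and from 2000 to 2500 bp it was 23.8% and 62.7%, values given without a test. The difference within 2 kb, from 44.9% to 55.0%, was 10.2 points (adjusted p = 6.01e-04, Fisher's exact test) and 5.22 points when matched (adjusted p = 0.00942, matched chi-square test).

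A total of 16 of the 206 testable Notch2 bins were gained, or 7.77% (95% Wilson interval 4.84 to 12.2%), beside 2.92% of all bins of the genome. The other 9 loci together had 10 gained of 592, or 1.69% (0.920 to 3.08%). Among bins with a WT level of 60% or less, which alone can gain 40 points, 34.0% of 47 Notch2 bins were gained, beside 13.7% over the genome. The Notch2 share depended on the strand read. It was 3.52% from plus strand cytosines, when the genome had 2.24% and the other 9 loci 2.18%. From the minus strand it was 6.45%, when these had 2.27% and 1.07%. On the plus strand Jag1 (5.17% of 58 bins) and Notch3 (4.71% of 85) were above Notch2, and all other loci were below it.

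Of the 16 Notch2 bins, 15 lay in introns and 1 upstream, at -13826 bp from the TSS. Intron 1, of 33956 bp, held 9 of the gained bins among 42 testable, intron 2 held 1 of 22, intron 4 held 1 of 12 and intron 5 held 1 of 18. Introns 7, 9 and 12 each held 1. Introns 1 to 12 had 15 gained of 107 and introns 13 to 33 had 0 of 30, a division made after the positions were seen. Those 30 bins were too few to set apart from the 2.92% of all bins of the genome.

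The longest run of gained bins in the 10 loci was in Notch2 intron 1, at chr3:98035601-98036400, 22174 bp from the TSS. Over its 4 bins 18.8% of 224 calls were methylated in WT and 78.7% of 188 in TCKO, a difference of 60 points (95% interval 51.5 to 66.9). Its first 2 bins also overlapped Gm42819, a gene model of the TEC class, which has yet to be tested experimentally. In the last bin, the first sequence above, 0 of 40 WT calls were methylated, which allows up to 7.50%, and 68.8% of 32 TCKO calls were. Its 4 CGs did not gain alike: at position 5 of the printed sequence 0 of 17 WT calls and 11 of 11 TCKO calls were methylated, and at position 87 they were 0 of 10 and 1 of 7.

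Among bins with a mean of at least 4 calls per cytosine, the largest gain in the 10 loci was in Notch2 intron 9, the second sequence above. There 0 of 35 WT calls were methylated, which allows up to 8.57%, and 78.3% of 46 TCKO calls were (adjusted p = 1.41e-11, Fisher's exact test). At a mean of 1 call, larger gains of up to 90.0 points passed, as at chr3:98038801-98039000 in Notch2, from 4.17% of 24 calls to 94.1% of 17. In the printed intron 9 bin each of the 4 CGs was at 0 in WT, and in TCKO between 7 of 11 and 12 of 13 calls were methylated. The calls of that intron 9 bin came mostly from the minus strand, with 31 of the WT calls and 39 of the TCKO calls. In intron 1 the bins at chr3:98025001-98025400 had no TCKO call on the plus strand.

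**Figure D2:**
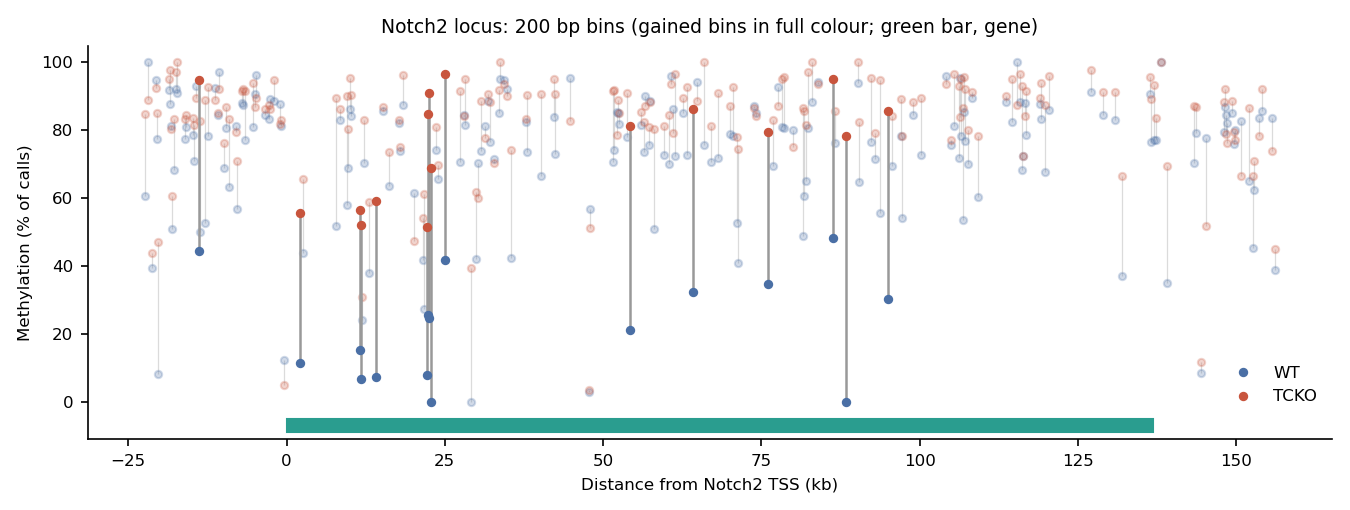
Methylation in percent of calls of the 206 testable 200 bp bins of the Notch2 locus against distance from the TSS in kb, WT in blue and TCKO in red, joined per bin. The 16 gained bins, in full colour, lie from -13826 bp to 94974 bp, and the green bar marks the gene.

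The edge of the threshold also ran through Notch2. Just inside were bins of 41.2, 43.5 and 44.0 points, and just outside were bins of 39.3, 39.2 and 39.0 points that had passed the test of the difference. One of those outside, in intron 1 at 29174 bp from the TSS, went from 0% of 37 calls to 39.3% of 28.

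Notch3 (chr17:32120820-32166852, minus strand), the receptor of mural cells around vessels, had the highest WT body level of the 10 genes. Its body was at 77.5% in WT and 81.3% in TCKO, 3.75 points higher (95% interval 2.21 to 5.28, adjusted p = 4.83e-06, Fisher's exact test). Around the TSS the levels were 50.9% and 54.2%, which did not pass the test (adjusted p = 0.566, Fisher's exact test), and the interval of the difference was -4.45 to 10.9 points. Of 108 testable bins 2 were gained, and they adjoined in intron 2 at chr17:32161001-32161400. Together these went from 28.8% of 52 calls to 90.2% of 51. In the second of them, printed above, both CGs gained: 3 of 9 calls became 6 of 6 at position 3, and 2 of 15 became 9 of 12 at position 121.

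Notch4 (chr17:34564268-34588503, plus strand), a receptor mainly of endothelial cells, was the gene with the largest pooled TSS difference. The level was 48.5% of 235 calls in WT and 65.1% of 215 in TCKO, higher by 16.6 points (95% interval 7.45 to 25.4, adjusted p = 0.00189, Fisher's exact test). The matched difference was 10.3 points (adjusted p = 0.0462, matched chi-square test). Within 500 bp it was 15.5% of 71 calls against 42.6% of 54 (adjusted p = 0.0154, Fisher's exact test), and there the matched difference of 18.9 points over 13 cytosines did not pass (adjusted p = 0.191, matched chi-square test). The gap lay upstream: from -500 bp to the TSS the level was 18.0% and 51.2%, and in the 500 bp after it 9.52% and 9.09%.

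The Notch4 body, at 55.9% and 57.8%, did not pass with pooled calls (adjusted p = 0.285, Fisher's exact test) but did when matched, at 7.19 points (adjusted p = 1.42e-06, matched chi-square test). Its 2 gained bins of 59 lay outside the gene. The first, printed above, lay in Agpat1, which encodes an enzyme of phospholipid synthesis, and went from 37.8% of 37 calls to 86.2% of 29, with no TCKO call on the plus strand. The second lay where Agpat1 and Egfl8 overlap and went from 39.3% of 28 calls to 83.3% of 24. Its locus holds 6 other protein-coding genes, the most of the 10.

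Jag1 (chr2:137081456-137116644, minus strand), the Jagged ligand that osteoblasts and their precursors display, had an unmethylated promoter in both libraries. Within 500 bp of the TSS 0 of 395 WT calls and 0 of 359 TCKO calls were methylated, which allows up to 0.759% and 0.836%. Within 2 kb the level was 9.15% of 918 calls and 13.3% of 773, and the pooled difference of 4.17 points passed (adjusted p = 0.0230, Fisher's exact test) while the matched difference of 1.83 points did not (adjusted p = 0.0867, matched chi-square test). From -1500 to -1000 bp the level was 18.4% in WT and 44.2% in TCKO, and from -1000 to 1000 bp every window was at 0% in both. The body was 4.87 points higher, at 67.2% against 62.3% (95% interval 2.60 to 7.13, adjusted p = 6.10e-05, Fisher's exact test).

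Of 81 testable Jag1 bins 3 were gained, and 1 of these was in the gene. In intron 2 the printed bin went from 14.3% of 42 calls to 69.2% of 39 (adjusted p = 2.98e-05, Fisher's exact test), and each of its 4 CGs was higher in TCKO: at position 134, 0 of 8 WT calls and 4 of 8 TCKO calls were methylated. The other 2 bins lay downstream of the gene in Slx4ip, which encodes a partner of the nuclease scaffold SLX4. One of them, at chr2:137068201-137068400, had the larger difference, from 35.6% of 45 calls to 96.1% of 51.

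Jag2 (chr12:112907819-112929776, minus strand), the second Jagged ligand, went from 64.8% to 71.7% over its body, 6.81 points higher (95% interval 3.98 to 9.61, adjusted p = 5.57e-06, Fisher's exact test). Around the TSS the levels were 16.1% of 472 calls and 20.2% of 396, which did not pass with pooled calls (adjusted p = 0.229, Fisher's exact test) and did when matched, at 6.36 points (adjusted p = 0.0379, matched chi-square test). Within 500 bp they were 0% of 87 calls, which allows up to 3.45%, and 0.535% of 187. The 1 gained bin of 45 lay 35075 bp downstream of the TSS, outside any other gene. There 33.7% of 104 calls rose to 81.6% of 87, and each of the 6 CGs in the printed sequence was higher in TCKO. Most calls of that bin were on the plus strand, 94 in WT and 77 in TCKO, where the level went from 37.2% to 83.1%.

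Dll1 (chr17:15367354-15376872, minus strand), a Delta ligand needed for somite formation, did not pass the pooled test at its TSS or over its body. Around the TSS the level was 7.93% of 593 calls in WT and 6.29% of 668 in TCKO, with an interval of the difference of -4.57 to 1.2 points. Over the body it was 55.8% and 56.8% (adjusted p = 0.726, Fisher's exact test), and the matched difference of 4.62 points passed (adjusted p = 0.0180, matched chi-square test). The 1 gained bin of 53 lay 11171 bp after the TSS, beyond the 3′ end of the gene. It went from 30.3% of 33 calls to 100% of 30: all 10 TCKO calls at each of its 3 CGs were methylated, against 4 of 11, 1 of 10 and 5 of 12 in WT at positions 1, 48 and 55.

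Hes1 (chr16:30064384-30067796, plus strand), a repressor that is the best-known Notch target, was the least methylated of the 10 genes. Its TSS window was at 6.18% of 809 calls in WT and 5.78% of 813 in TCKO, and the pooled difference did not pass (adjusted p = 0.842, Fisher's exact test). The matched difference was 2.13 points with an adjusted p of 0.0498 (matched chi-square test), close to the threshold. Over the body 2.71% of 848 calls and 6.04% of 977 were methylated, higher by 3.33 points (95% interval 1.45 to 5.23, adjusted p = 0.00114, Fisher's exact test).

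Away from the promoter Hes1 differed more. From -4500 to -4000 bp of the principal start the level was 25.6% of 43 calls in WT and 65.2% of 23 in TCKO, and from -4000 to -3500 bp it was 32.1% of 28 and 70.4% of 27, values given without a test. The 1 gained bin of 58, at chr16:30043001-30043200, lay at -21283 bp, outside any annotated gene. It went from 10.8% of 37 calls to 83.9% of 56 (95% interval of the difference 54.9 to 83.0 points, adjusted p = 2.60e-10, Fisher's exact test), the second largest gain in the 10 loci at this depth minimum. At 23317 bp a bin moved the other way, from 86.3% of 73 calls to 48.6% of 37 (adjusted p = 0.00187, Fisher's exact test), so it fell by 37.7 points, short of the 40 points asked of a lost bin.

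Hey1 (chr3:8663359-8667256, minus strand), a Notch target also induced by bone morphogenetic proteins, did not pass the test at its TSS or over its body. Its TSS window was at 17.3% of 734 calls and 17.2% of 680, with an interval of the difference of -4.03 to 3.86 points. Its body was at 39.2% in both, with an interval of -4.83 to 4.64 points, and 0 of 60 testable bins were gained, which the Wilson interval sets at up to 6.02%. The flanks were higher in TCKO, by 4.43 points upstream and 6.42 points downstream.

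Hey2 (chr10:30832359-30842801, minus strand), a repressor of the same family known from heart and vessels, was the one target with a gain at the TSS by both estimates. There 24.8% of 916 calls and 32.0% of 726 were methylated, 7.17 points higher (95% interval 2.79 to 11.6, adjusted p = 0.00573, Fisher's exact test), and the matched difference was 7.51 points (adjusted p = 4.66e-04, matched chi-square test). From plus strand cytosines alone the pooled difference was -17.4 points (adjusted p = 5.86e-04, Fisher's exact test), the opposite direction. Within 500 bp 0 of 286 and 0 of 138 calls were methylated, which allows up to 1.05% and 2.17%. Further in, from 1000 to 1500 bp, the level was 38.9% of 95 calls in WT and 61.5% of 96 in TCKO. From -2000 to -1500 bp it went the other way, from 46.3% of 82 calls to 27.1% of 85. These window values are given without a test. The body rose from 61.3% to 72.4%, or 11 points (95% interval 7.62 to 14.4, adjusted p = 8.57e-10, Fisher's exact test), and 6.81 points when matched. None of 80 testable bins was gained, which allows up to 4.58% by the Wilson interval.

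**Figure D3:**
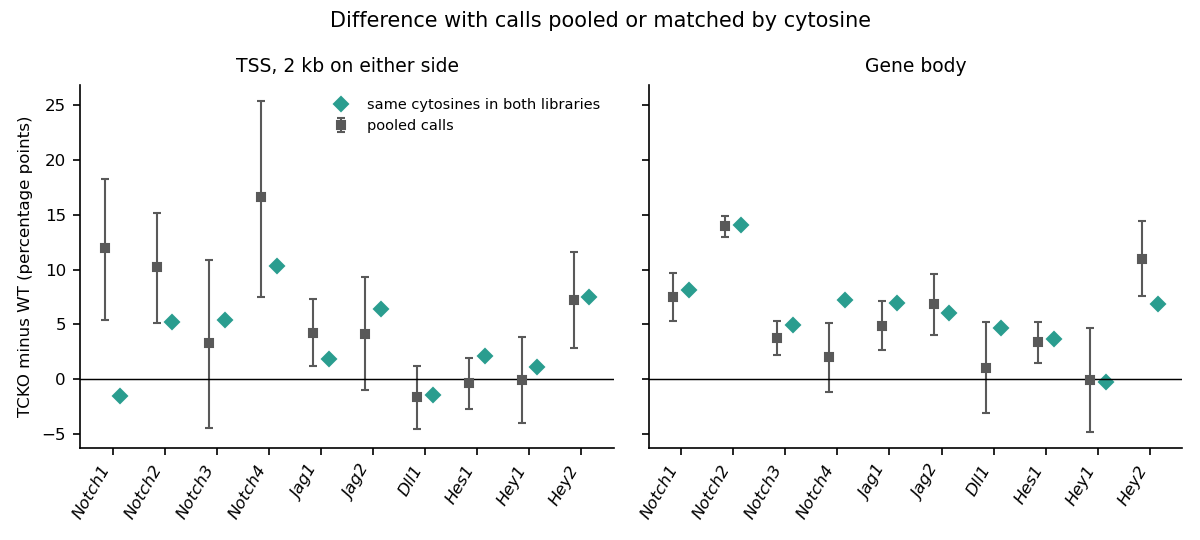
TCKO minus WT in percentage points per gene, around the TSS and over the body, from pooled calls (grey squares, 95% Newcombe intervals) and from the same cytosines in both libraries (green diamonds). At the TSS of Notch1 the pooled difference was 12 and the matched one -1.53, while over the Notch2 body they were 14 and 14.1.

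Over gene bodies, 7 of the 10 genes were called higher with pooled calls, of 64.4% of all 21620 genes tested, and 0 lower, of 2.79%. When matched, 9 of 10 were higher, of 68.9% of all genes, and the exception was Hey1. From minus strand cytosines alone 3 of 10 were higher, and Notch1 (1.29 points), Notch3 (2.20), Jag2 (1.89) and Hes1 (2.5) no longer passed, and from the plus strand 5 were higher. A single strand left fewer calls to test, and the share of all genes called from it was not counted. The median body difference was 4.31 points over the 10 genes and 5.66 over all genes with pooled calls, and 6.44 and 5.59 when matched. Receptors had a median of 5.63 points, ligands 4.87 and targets 3.33.

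The bins of the 10 loci as a whole were near the genome. Of 798 testable bins, out of 2585 with at least 4 CG cytosines in the reference, 26 were gained, or 3.26% (95% Wilson interval 2.23 to 4.73%). Receptors had 20 of 421 (4.75%, 3.10 to 7.22%), ligands 5 of 179 (2.79%, 1.2 to 6.37%) and targets 1 of 198 (0.505%, 0.0892 to 2.80%). The receptor share rested on Notch2: without it 4 of 215 bins were gained, or 1.86% (0.726 to 4.69%). With a mean of at least 10 calls per cytosine, 0 of the 145 bins left were gained, and 35 of these were in Notch2, beside 1.94% of all bins. Bins of 1 locus are neighbours and no replicates, and the classes were not tested against each other.

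Lost bins, 40 points or more lower at adjusted p below 0.05, numbered 0 of 798, beside 0.0354% of all bins, and 1 bin passed at an unadjusted p below 0.05 (Fisher's exact test). That bin lay upstream of Notch4, at -9167 bp, and went from 72.2% of 18 calls to 25% of 16 (adjusted p = 0.141, Fisher's exact test). By direction alone, 575 of the 798 bins were higher and 214 lower in TCKO. Over the genome 1699525 of 2487317 testable bins were higher and 766869 lower. The median difference of the 798 bins was 5.79 points, against 4.76 over the genome.

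**Figure D4:**
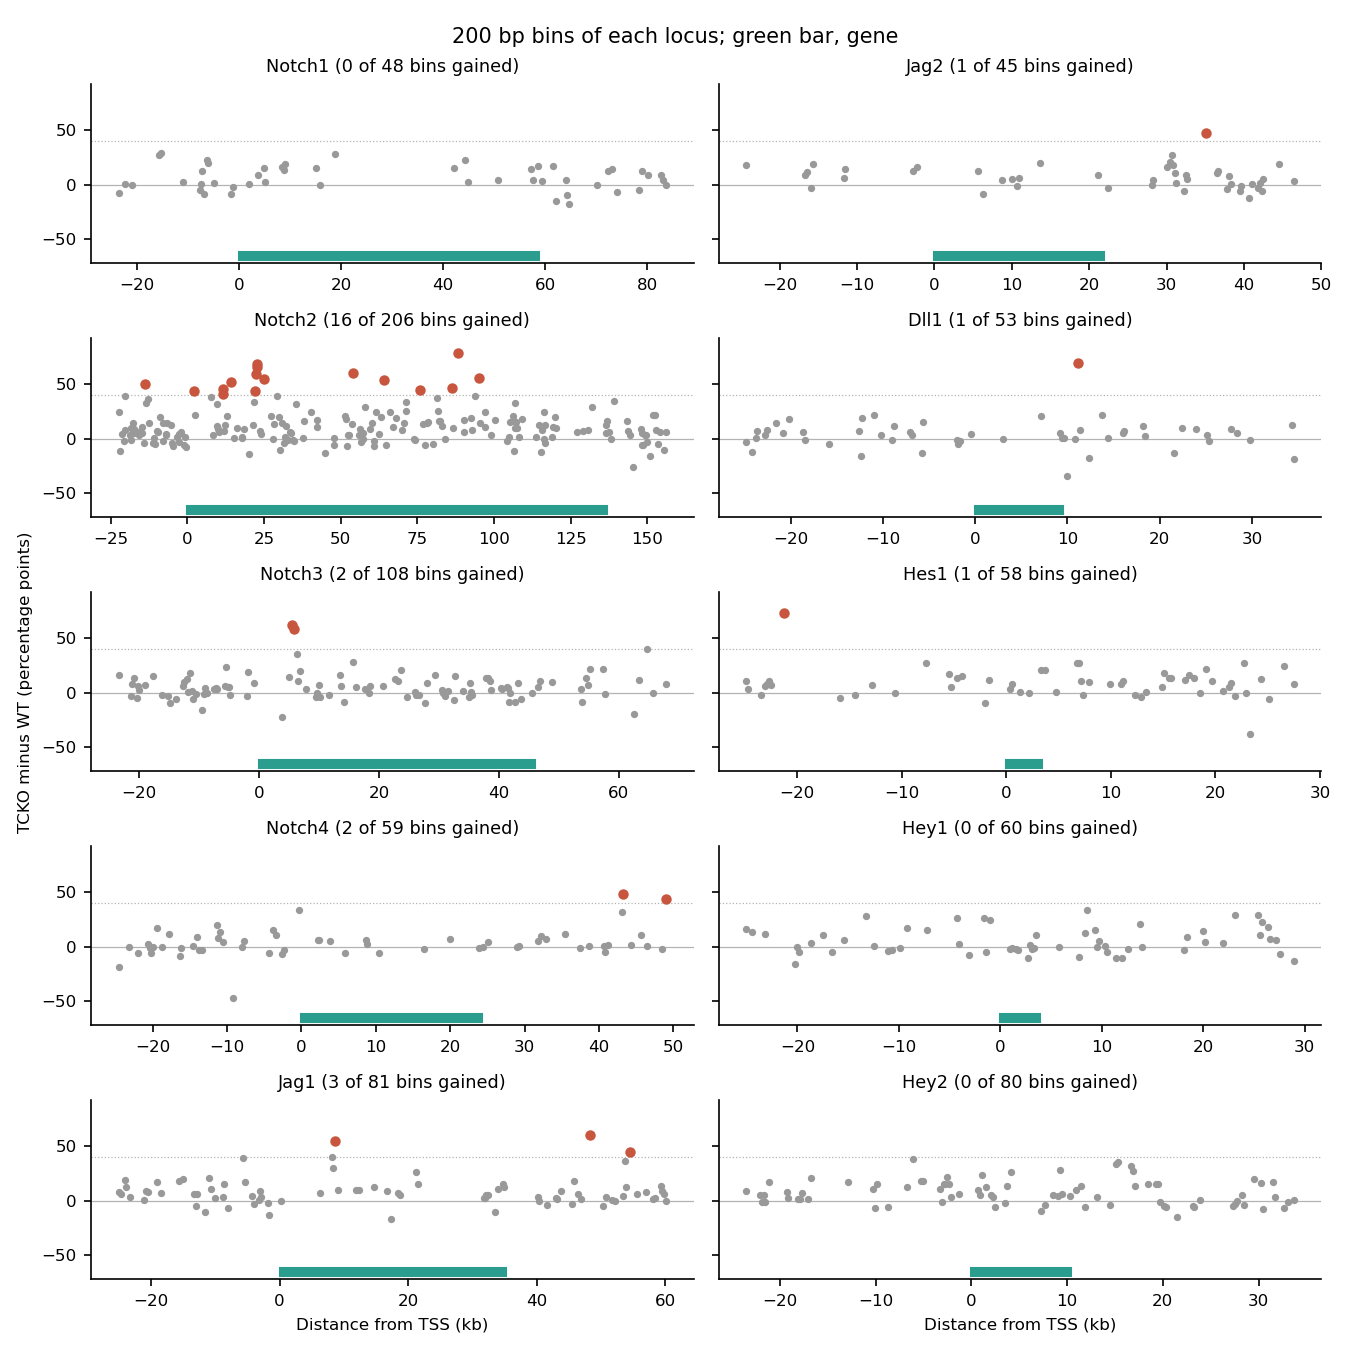
TCKO minus WT in percentage points of each testable 200 bp bin against distance from the TSS in kb, 1 panel per gene. Gained bins are red, the dotted line is at 40 points and green bars mark the genes; 16 of the 26 gained bins are in the Notch2 panel and 0 in those of Notch1, Hey1 and Hey2.

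By position, 18 of 246 testable intron bins were gained (7.32%), 0 of 35 exon bins, 2 of 271 upstream (0.738%) and 6 of 246 downstream (2.44%) of the genes. Shares over all intron, exon or flanking bins of the genome were not counted. The 35 exon bins were too few to set apart from the 2.92% of all bins. None of the 31 testable bins within 2 kb of a TSS was gained, a number too small to set apart from the 2.92% of all bins. At a mean of 1 call per cytosine, a bin 362 bp from the 5′ end of the Notch1 record was gained, chr2:26516201-26516400, from 16.7% of 18 calls to 91.7% of 12 (adjusted p = 0.00381, Fisher's exact test). Of the 18 gained intron bins 15 were in Notch2, which had 137 of the 246 testable intron bins. A total of 4 gained bins lay in other protein-coding genes, those named above for Jag1 and Notch4.

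**Figure D5:**
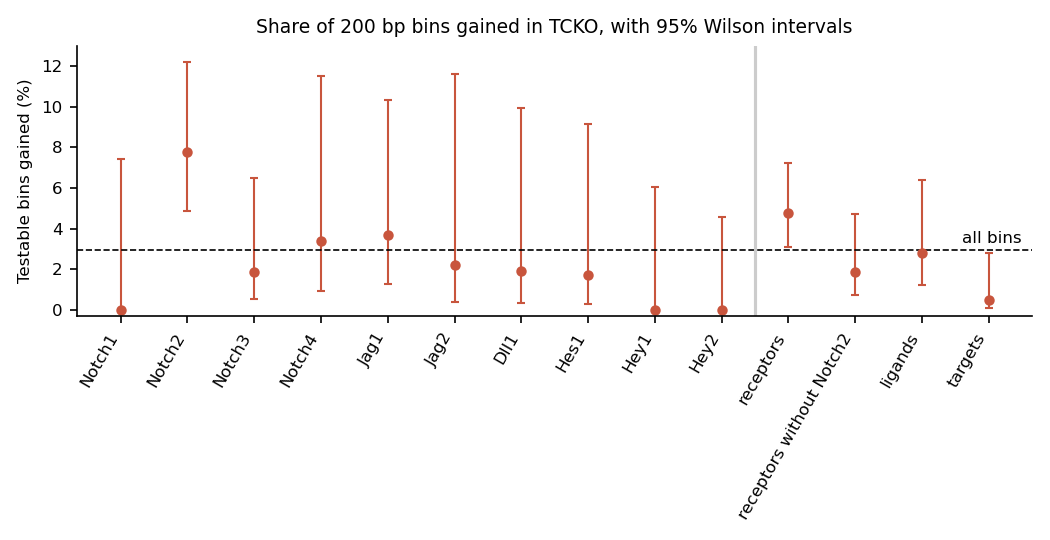
Percent of testable 200 bp bins gained in TCKO for each gene and class, with 95% Wilson intervals. The dashed line is the 2.92% of all testable bins of the genome, and Notch2, at 7.77%, is the one gene whose interval lies above it.

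Short strings known from binding sites were counted in the 26 gained bins, on both strands, as a description. No string contains another. The RBPJ core TGGGAA was in 10 bins (38.5%), beside 16.7% of all testable and 19.4% of all gained bins of the genome. Among the bins printed above, it was in those of Notch2 intron 1, Notch3, Jag1, Jag2 and Dll1. The printed Hey2 promoter stretch, with no methylated call in either library, held it too. The Runt string AACCACA was in 4 bins (15.4%, beside 5.04% and 9.02%) and the AP-1 string TGAGTCA in 2 (7.69%, beside 3.03% and 8.57%), which were those of Notch2 intron 9 and Notch4 printed above. The TEAD string CATTCCA was in 1 bin (3.85%, beside 3.21% and 5.58%), that of Notch3. The share of testable bins of the 10 loci that held each string was not counted. A string is not a bound site.

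Of 48 further genes of the pathway, 15 were higher in TCKO around the TSS and 0 lower with pooled calls, beside 37.9% of all genes higher, and the median difference was 5.24 points, beside 4.71 over all genes. When matched, 24 were higher and 0 lower, beside 44.7% of all genes higher. Dtx2, an E3 ligase that binds the Notch intracellular domain, was the one called with 20 points or more, from 39.7% of 572 calls to 67% of 437, and its matched difference was 13.9 points (adjusted p = 1.43e-06, matched chi-square test). Rbpj, which encodes the DNA-binding partner of Notch, was at 79.3% and 86.4% in this window (adjusted p = 0.00414, Fisher's exact test). Its matched difference was 6.73 points (adjusted p = 0.00430, matched chi-square test). The window lies at the 5′ end of the gene record. Levels at principal starts are not given for the wider list, so the value need not be that of the Rbpj promoter. The ligand Dll4 was at 6.19% and 5.67% and did not pass (adjusted p = 0.876, Fisher's exact test).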

How the data were processed

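Whole genome bisulfite sequencing of 1 WT and 1 TCKO primary osteoblast sample was used. Per the labels and the methods, the authors used BSMAP 2.74 with GRCm38 as the genome, keeping reads that mapped uniquely (1 best hit), and took a methylation level as C/(C+T). Removal of duplicate reads was not described. The authors deposited counts of methylated and of all calls per CG cytosine and strand, without normalization. Reads were not processed again, and 0 called positions were off a CG of the reference.

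Counts were pooled over the TSS window, the body and 200 bp bins (Python 3.11.15, numpy 2.4.6, pandas 2.3.3, scipy 1.17.1, numba 0.67.0, matplotlib 3.10.9). Regions needed at least 4 CG cytosines and 20 calls in each library. Levels have Wilson and differences Newcombe 95% intervals. Where 0 calls were methylated, the limit is 3 calls of the total. These intervals, limits and the tests took calls as independent, also calls of the same read. Tests were 2-sided Fisher's exact tests with Benjamini-Hochberg adjustment over the whole table, and the scripts were tested on simulated data. The 2 libraries cannot show the spread between animals.

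Members, lists and alternatives were chosen with earlier results of these data known. All 10 members were named. For each, the run with most gained bins was described, and of the wider list the genes called with at least 20 points or called lower; Rbpj and Dll4 were named after their values were seen. Alternatives changed the call minimum, strand, averaging, window, start site, bin depth, cytosine number, grid, threshold and flank. The cytosine-matched estimate and the values of Notch2 alone against the other 9 loci were added after seeing the data.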

Additional observations from a re-analysis of the deposited data

How the results depend on the processing

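Differences below are TCKO minus WT in percentage points, and the cause of each change was not tested. For the TSS and the body, the share of all genes called was counted only for the main setting and the cytosine-matched estimate. At the TSS, the 5 genes called higher became 1 with cytosines of at least 4 calls in each library. Notch1 (1.90), Notch4 (19.4), Jag1 (9.47) and Hey2 (6.39) then no longer passed, Hes1 turned to 0.381, and the Hey1 body to 1.95. From plus strand cytosines 3 genes were higher: Notch1 (15.5) no longer passed, Jag2 (40) did, and Jag1 (-0.617), Hes1 (1.32), Hey1 (3.59) and Hey2 (-17.4) changed sign. From the minus strand 2 were higher: Notch1 (1.90), Notch2 (6.43) and Notch4 (18.1) no longer passed and Hey1 (0.848) changed sign. Averaging cytosine levels gave Notch1 1.2, Notch2 3.70 and Jag2 11.6, with no count of calls, since it pools no calls to test.

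Narrower windows lowered the TSS count to 2 within 500 bp, 3 within 1 kb and 1 from 1 kb upstream to 100 bp downstream. Within 500 bp Jag1 and Hey2 were at 0, Notch2 (-0.681), Dll1 (0.411), Hes1 (2.00) and Hey1 (1.23) changed sign, and of the wider list 3 genes were higher and 1 lower. Within 1 kb Notch2 (6.57) and Jag1 (0) no longer passed, Notch3 (-2.59), Jag2 (-1.85), Hes1 (1.18) and Hey1 (0.639) changed sign, and 1 gene of the wider list was lower. From 1 kb upstream, Notch1 (10), Notch2 (4.66), Jag1 (0) and Hey2 (0.111) no longer passed, and Notch3 (-9.24), Jag2 (-12.5), Dll1 (1.96) and Hey1 (0.686) changed sign. At the principal start Notch1 was at 0.418 and Hes1 at 0.765.

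The cytosine-matched estimate, chosen after seeing the data, gave Notch1 -1.53, Jag1 1.83, Jag2 6.36, Hes1 2.13 and Hey1 1.13 at the TSS, with 24 of the wider list higher, and made the Notch4 (7.19) and Dll1 (4.62) bodies pass. Over bodies, the 7 genes called higher became 3 from the minus strand, where Notch1 (1.29), Notch3 (2.20), Jag2 (1.89) and Hes1 (2.5) no longer passed. From the plus strand Jag1 (2.18) and Hey2 (3.43) did not pass. Averaging, again over cytosines with at least 4 calls in each library, gave Notch1 13.1, Notch3 5.54, Notch4 7.74 and Hey2 4.47. Without the first 1 kb Dll1 (5.39) passed and Hey1 was at 0.191.

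The 26 gained bins became 57 at a mean of 1 call and 9 with 8 CG cytosines. At a mean of 10 calls they became 0, a share of 0% in receptors, ligands and targets. They became 15 from the plus and 17 from the minus strand, 41 at 30 points and 16 at 50 points. These settings also changed the counts over the genome. Shares of testable bins were 2.77% beside 2.65% of the genome at a mean of 1 call and 3.81% beside 3.29% with 8 CG cytosines. From the minus strand they were 2.61% beside 2.27%, at 30 points 5.14% beside 4.70% and at 50 points 2.01% beside 1.57%. The plus strand share was also above the 2.24% of the genome. At a mean of 10 calls the share was lower, 0% of 145 bins beside 1.94%. Lost bins went from 0 to 1 at an unadjusted p and to 1 at 30 points. The receptor share was 7.59% without flanks, 7.60% at 30 points and 2.85% at 50 points, the ligand share 0.645% from the minus strand, and the target share 0% with flanks of 10 kb and without flanks. The libraries had 5.97 (WT) and 5.11 (TCKO) calls per CG cytosine. No paired analysis was possible because each genotype had 1 library, which also left no replicate to leave out.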
